A study of Mus musculus with 2 samples.

Results

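Wide DNase I hypersensitive sites (DHSs) of the mouse cerebral cortex are described here: 424 regions in which both libraries of the series had a peak of accessible DNA at least 500 bp wide. They were chosen by width alone, as peaks of at least 500 bp that overlapped such a peak in the other library, and overlapping wide peaks of both libraries were joined to 1 region. They hold 452 of the 90059 peaks of replicate 1 and 455 of the 175597 peaks of replicate 2, and they are 424 of 78165 shared DHSs, that is, merged regions with a peak of each library. The other 77741 are called other shared DHSs below. Peaks of this width were 1.41% of all peaks in replicate 1 and 1.32% in replicate 2.

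Libraries came from the left cerebral cortex. The 2 donors were female B6CASTF1/J mice aged 14 days, the F1 offspring of a cross between the strains C57BL/6J and CAST/EiJ. Each mouse gave 1 DNase-seq library, an assay in which DNase I cuts accessible chromatin and the released ends are sequenced. The animals carry separate animal numbers under 1 donor record, they form 1 group with no treatment, and no control group was part of the design. No test between groups was therefore possible, each value is given per library, and all comparisons below are descriptions of these 2 libraries.

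A DHS is a stretch of chromatin from which nucleosomes are depleted or displaced, so that regulatory proteins and nucleases reach the DNA. Most active promoters and enhancers carry a DHS about as long as the gap left by a displaced nucleosome, and a wider one spans several such positions. CpG islands, stretches of DNA that kept their CpG sites because they are rarely methylated, cover many promoters of broadly used and of developmental genes and tend to be accessible over long distances. Cortex is a mixture of neurons and glia, so fewer accessible cells and less accessible chromatin per cell cannot be told apart. Of 14 marker genes of cortical excitatory neurons, 13 had a promoter DHS in both libraries, against 1 of 14 genes of hindbrain and spinal cord and 1 of 10 liver genes. Over all protein-coding genes, 13757 of 21938 had one, as did all 18 housekeeping genes listed.

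The sequences below show what wide DHSs consist of. Each is the 200 bp inside the region, free of untranslated exons, with the most bases in footprints of both libraries, or the most central such window where there were none. A footprint is a short stretch that the authors called as protected from cleavage, and capitals mark bases inside a footprint of both libraries. All are read 5′ to 3′ on the plus strand of GRCm38.p6 (mm10).
Csnk1g2, promoter, high signal, chr10:80622026-80622225: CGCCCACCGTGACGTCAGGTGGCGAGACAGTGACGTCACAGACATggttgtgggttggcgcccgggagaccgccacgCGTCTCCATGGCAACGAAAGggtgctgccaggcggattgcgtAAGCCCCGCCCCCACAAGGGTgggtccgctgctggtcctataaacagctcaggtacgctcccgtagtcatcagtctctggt
Smarca2, promoter, among the widest, chr19:26607033-26607232: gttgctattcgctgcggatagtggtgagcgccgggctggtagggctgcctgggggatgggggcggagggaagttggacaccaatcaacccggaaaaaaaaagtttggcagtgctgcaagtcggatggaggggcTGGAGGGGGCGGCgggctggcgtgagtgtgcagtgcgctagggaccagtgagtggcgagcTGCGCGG
Stim2, promoter, no footprint, chr5:53999051-53999250: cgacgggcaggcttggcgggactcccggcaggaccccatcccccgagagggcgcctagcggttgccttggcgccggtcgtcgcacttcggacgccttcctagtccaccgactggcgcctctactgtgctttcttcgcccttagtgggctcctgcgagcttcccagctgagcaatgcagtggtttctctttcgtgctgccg
Pcdh10, coding exon, widest, chr3:45380695-45380894: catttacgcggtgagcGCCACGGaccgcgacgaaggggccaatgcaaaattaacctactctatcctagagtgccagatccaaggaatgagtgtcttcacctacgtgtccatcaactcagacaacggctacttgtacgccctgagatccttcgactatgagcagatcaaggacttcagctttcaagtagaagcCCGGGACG
Maml3, intron, most footprints, chr3:52102027-52102226: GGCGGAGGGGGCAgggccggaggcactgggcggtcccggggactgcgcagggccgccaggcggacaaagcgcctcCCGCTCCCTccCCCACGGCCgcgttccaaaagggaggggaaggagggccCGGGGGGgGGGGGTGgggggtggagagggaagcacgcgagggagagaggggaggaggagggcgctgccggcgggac
Kalrn, intron, few CpG sites, chr16:34172861-34173060: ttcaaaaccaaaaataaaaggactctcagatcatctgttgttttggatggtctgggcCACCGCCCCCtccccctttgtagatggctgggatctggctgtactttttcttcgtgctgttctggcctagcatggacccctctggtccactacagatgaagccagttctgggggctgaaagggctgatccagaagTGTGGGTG

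These windows differ in how much of the wide DHS was protected. At Csnk1g2, which encodes a casein kinase 1, 86 of the 200 bases lay in footprints of both libraries, in 3 stretches. They held both matches to the cyclic AMP response element TGACGTCA and the match to the SP/KLF sequence GGGCGG, read on either strand. At Smarca2, the ATPase of a SWI/SNF chromatin remodelling complex, 20 bases in 2 stretches were protected in both libraries, with 14 CpG sites in the window. The window at Stim2, a calcium sensor of the endoplasmic reticulum, held 19 CpG sites and no footprint. The Pcdh10 window, in the coding exon of this protocadherin cell adhesion gene, had 15 protected bases and 13 CpG sites. The Maml3 window, in an intron of a Notch coactivator gene, was 78.0% G or C with 45 protected bases in 5 stretches. The Kalrn window, in an intron of the gene for an exchange factor for small GTPases in dendritic spines, held 2 CpG sites, with 1 SP/KLF match inside a footprint of both libraries.

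Widths and signals come from the reads that chose the regions and are given as a description. The widest peak of a region had a median width of 589 bp in replicate 1 and 600 bp in replicate 2, where the median over all peaks was 193 and 200 bp. Joined regions spanned 500 to 2140 bp with a median of 692 bp, 51 of them exceeded 1000 bp, and together they covered 323 kb on 20 chromosomes. In 376 regions each library contributed exactly 1 wide peak. Just inside the threshold, peaks at Gsk3b were 500 and 600 bp wide in replicates 1 and 2, at Lin52 560 and 500 bp, and at Mon1b 500 and 700 bp. Just outside it, peaks at Gm4258 were 499 and 520 bp wide, and at Rcan3 498 and 620 bp. The threshold cut through a dense range: 98 overlapping pairs had a smaller width of 500 to 519 bp, and 114 pairs had 480 to 499 bp beside a partner of at least 500 bp.

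Most wide peaks of one library met a narrower peak or none in the other. Across the 424 regions the widths of replicates 1 and 2 correlated with r = 0.225, a value restricted by the threshold on both axes. Of the 1268 wide peaks of replicate 1, 452 (35.6%) met a wide peak in replicate 2, 448 met 1 narrower peak, 334 met several narrower peaks and 34 met none. Of the 2310 wide peaks of replicate 2, 455 (19.7%) met a wide peak in replicate 1, 834 met 1 narrower peak, 476 met several and 545 met none. In replicate 1 the promoter share was 80.5% where the partner was wide, 78.1% with 1 narrower peak, 81.1% with several and 58.8% with none. In replicate 2, the library with more peaks, it was 81.5% where the partner was wide, 54.4% with 1 narrower peak, 58.2% with several and 28.6% with none.

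The deposited peak lists hold peaks that overlap each other within a library, and wide peaks are often among them. Of the 452 wide member peaks of replicate 1, 254 (56.2%) overlapped another peak of the same library and 149 (33.0%) contained another peak whole, where 2.00% and 0.567% of all its peaks did so. In replicate 2, 236 of 455 (51.9%) overlapped another peak and 133 (29.2%) contained one, where all its peaks gave 1.98% and 0.543%. The part of these overlaps in the widths was not tested. When every peak that overlaps another of its library was left out, 116 regions remained, with a promoter share of 76.7% and a median CpG ratio of 0.737, values close to those of all 424 given below.

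**Figure D1:**
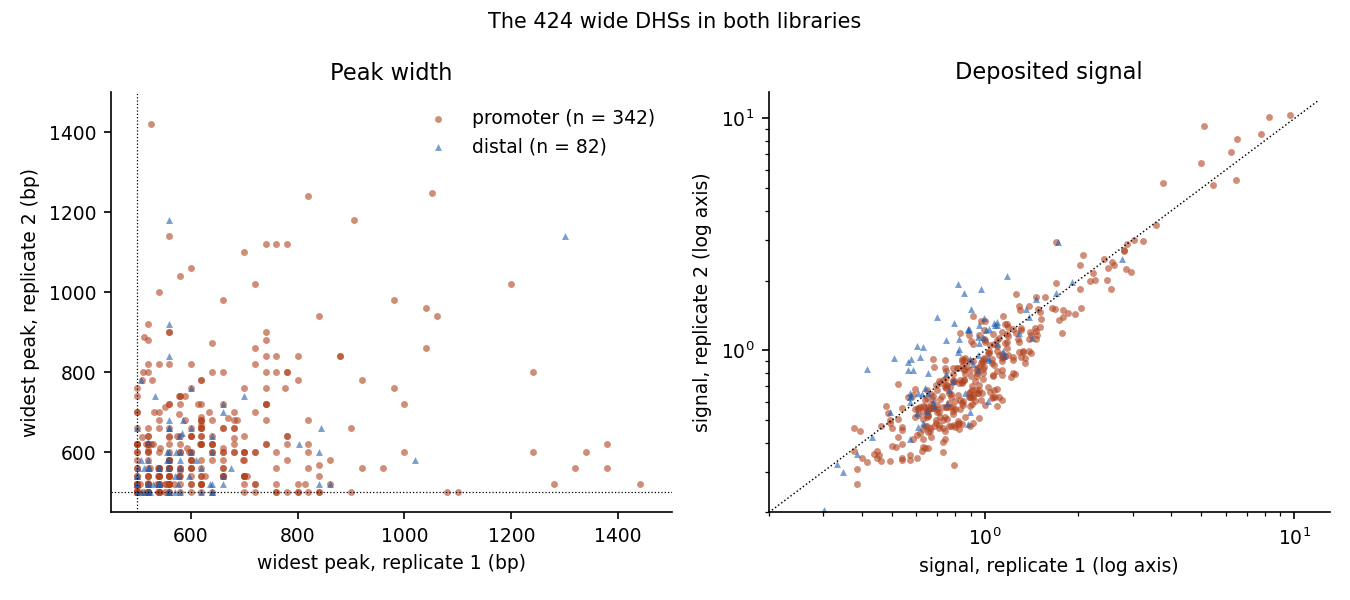
Left, width of the widest peak of each wide DHS in replicate 1 (horizontal axis, bp) and replicate 2 (vertical axis, bp), with dotted lines at the threshold of 500 bp. Right, deposited signal in both libraries on log axes with a dotted line of equality. Each point is 1 of 424 regions, circles for 342 promoter and triangles for 82 distal regions. Widths scatter with little relation between libraries, while signals follow the line, with most promoter regions below it.

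Signals of wide DHSs were moderate. The median of the highest peak signal per region of wide DHSs was 0.879 (replicate 1) and 0.772 (replicate 2), and that of other shared DHSs 0.755 and 0.811. Wide DHSs were most frequent in the middle of the signal range: they made up 0.115% of the lowest decile of shared DHSs, 0.998% of the seventh and 0.243% of the highest. Wide promoter DHSs had medians of 0.894 and 0.724, below the 1.17 and 1.12 of other promoter DHSs. Signals differed over 2-fold in 4 of 424 wide DHSs (0.943%), where 5.03% of other shared DHSs did so. Within promoters the shares were 0.585% of wide and 2.36% of other DHSs. The correlation of log2 signals between libraries, across regions, was 0.894 for wide and 0.891 for other shared DHSs, and 0.933 and 0.947 within promoters, while the SD of the log2 ratio across regions was 0.39 for wide and 0.52 for other shared DHSs. The signal was higher in replicate 1 in 297 wide DHSs (70.0%), against 54.1% of other shared DHSs. The median log2 ratio of replicate 1 to replicate 2 was 0.25 at wide promoter DHSs and 0.17 at other promoter DHSs, and -0.14 at wide distal and -0.03 at other distal DHSs. These medians were positive in both promoter sets and negative in both distal sets, and within each class the wide set lay further out. The part of the promoter share in the 70.0% was not tested.

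Among wide DHSs, the 5 highest signals lay at promoters, and the 5 lowest lay in introns or on the X chromosome. Gsk3b, a kinase of Wnt and insulin signalling, had a signal of 9.68 in replicate 1 and 10.3 in replicate 2 over 500 and 600 bp. Khsrp, an RNA-binding regulator of splicing and decay, had 8.28 and 10.1, and Csnk1g2 had 7.78 and 8.59. Slc25a42, a mitochondrial carrier of coenzyme A, had 6.51 and 8.19, and Lin52, a subunit of the DREAM cell cycle complex, had 5.11 and 9.25. All 5 were promoters between 500 and 740 bp wide, so none was among the 15 widest regions. At the other end, a region in an intron beside Gm22987 had 0.301 and 0.204, and an intronic region of Nfic, a nuclear factor I gene, had 0.347 and 0.299. The other 3 of the 5 lowest lay on the X chromosome. They were promoter regions 615 bp from a TSS of Gm26652 and 798 bp from a TSS of Gm15202, and a region in the exon of Ubqln2, a ubiquitin shuttle factor.

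The regions with the largest signal ratio fell on opposite sides of the promoter boundary. Signal was highest relative to replicate 2 at Brinp3 (0.794 in replicate 1, 0.319 in replicate 2, log2 ratio 1.32), Spock3 (0.732 and 0.363, 1.01) and Nrp1 (0.894 and 0.473, 0.92), all promoters. It was lowest at an exon of Gm29675 near Irf4 (0.817 and 1.94, log2 ratio -1.25), an intron of Kalrn (0.855 and 1.76, -1.04) and an intron of Dock8, an exchange factor of immune cells (0.416 and 0.831, -1.0), all distal and poor in CpG.

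Most wide DHSs were promoters, a property the width rule did not use. The midpoint lay at most 1 kb from a transcription start site (TSS) of the annotation in 342 of 424 (80.7%), against 32.0% of other shared DHSs. Introns held 7.08% of wide and 32.8% of other shared DHSs, intergenic DNA 7.31% and 31.3%, and exons 4.95% and 3.88%. Among other shared DHSs in the signal range of the wide ones, between the lower and upper quartile of their mean signal (0.629 to 1.12), 25.4% were promoters. The share was 70.8% in the 106 narrowest wide DHSs by mean width and 86.8% in the 106 widest. Of 342 wide promoter DHSs, the nearest start belonged to a protein-coding gene in 305 (89.2%), against 84.4% of other promoter DHSs, to a lincRNA in 14 and to an antisense gene in 11.

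**Figure D2:**
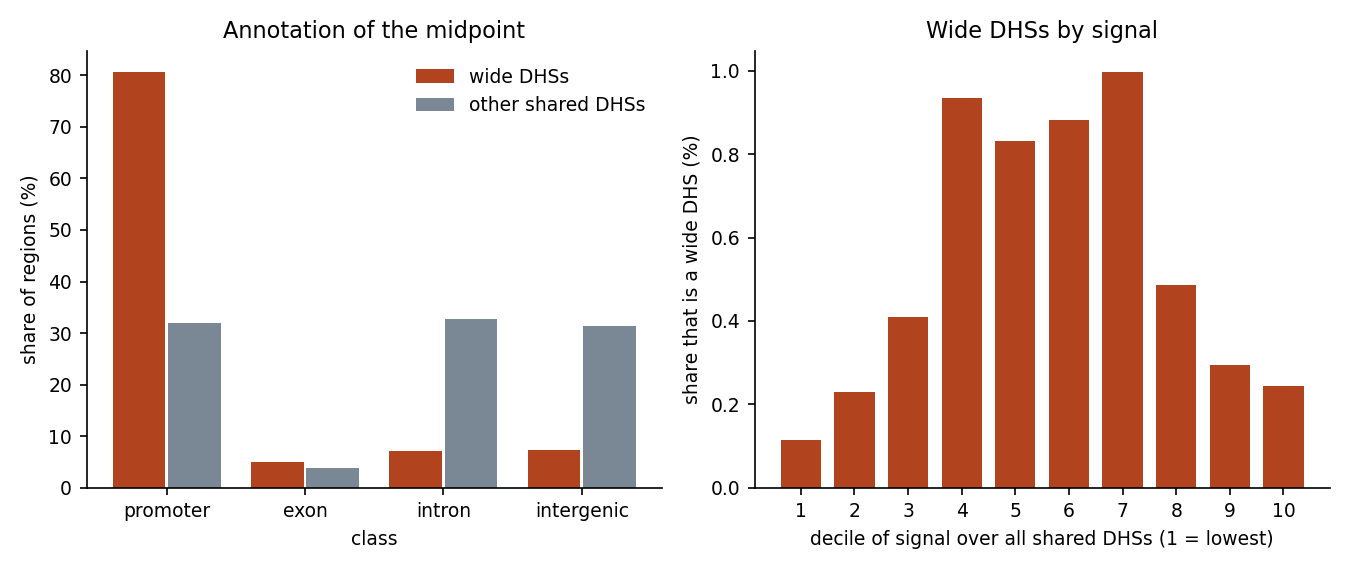
Left, share of regions (%) by annotation of the midpoint for wide DHSs (n = 424) and other shared DHSs (n = 77741). Right, share of all shared DHSs that is wide (%) in each decile of mean signal, from lowest to highest. The promoter bar stands at 80.7% for wide and 32.0% for other shared DHSs, and the wide share peaks at 0.998% in decile 7.

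Wide promoter DHSs spread to both sides of the TSS. A protein-coding TSS lay inside 234 wide DHSs (55.2%) and 16.4% of other shared DHSs. Among promoter DHSs with such a TSS within 1 kb of the midpoint, the shares were 71.3% of wide and 57.7% of other ones. A longer region can cover a TSS more often, and the part of region width was not tested. Around a TSS inside them, the wide regions extended a median of 352 bp upstream and 388 bp downstream. The downstream side was the longer in 125 of 234 (53.4%), against 28.0% of other shared DHSs with a TSS inside. Among the 328 wide promoter DHSs with a protein-coding TSS within 1 kb of the midpoint, 72 (22.0%) lay wholly downstream of it and 22 (6.71%) wholly upstream, where other promoter DHSs gave 24.2% and 18.1%. At least 2 clusters of start sites, over 50 bp apart, lay in the 2 kb around the midpoint of 69.3% of wide and 53.7% of other promoter DHSs. Divergent starts of a pair of genes were about as frequent, at 13.7% and 14.6%.

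The sequence under wide DHSs was rich in CpG over a long distance. In the 1 kb around the midpoint, the median ratio of observed to expected CpG was 0.746 for wide and 0.283 for other shared DHSs, and the median GC content was 62.6% and 48.5%. With replicate 2 alone, all peaks of at least 500 bp had a median CpG ratio of 0.452, and with replicate 1 alone 0.705. The difference was smaller within promoters, at 0.777 for wide and 0.655 for other promoter DHSs, of which those in the same signal range had 0.556. A CpG-rich stretch was a run of 200 bp windows with at least 50% GC and a CpG ratio of at least 0.6. The longest one that overlapped the region had a median of 1330 bp at wide and 790 bp at other promoter DHSs, or 590 bp in the same signal range. It reached 1000 bp at 69.3% of wide and 36.8% of other promoter DHSs. A longer region can meet more such stretches, and the part of region width in these lengths was not tested. Repeats were not frequent: 2 wide DHSs (0.472%) consisted to over 50% of 31-base sequences found elsewhere in the genome, against 39 of 3888 (1.00%) other shared DHSs, every twentieth of them.

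Genes with a wide promoter DHS were shifted to greater length, although most were under 100 kb. A wide DHS overlapped the 1 kb on either side of a TSS in 344 of 21938 protein-coding genes (1.57%), or 2.50% of the 13757 genes with a promoter DHS in both libraries. The annotated length of these 344 genes had a median of 71.0 kb, against 25.2 kb for the 13413 genes whose promoter DHS was not wide. Genes over 100 kb made up 38.1% of the wide set and 15.1% of the other, and genes over 300 kb made up 14.8% and 3.51%. For 169 of the wide genes the wide DHS had a mean signal of 0.629 to 1.12, and their median length was 82.8 kb. For 1800 other genes the highest promoter DHS lay in that range, and the median was 30.7 kb. Narrower DHSs with higher signal at the wide promoters were not counted, so promoter signal was not matched. The full sets of 344 and 13413 genes each had a median of 5 annotated start sites per gene. Genes with a Zfp, Zscan or Zkscan symbol, mostly zinc finger proteins, were 3 genes (0.872%) of the wide and 351 genes (2.62%) of the other set. This difference was not tested. Among genes with an Rpl or Rps symbol, not all of them ribosomal proteins, 1 had a wide promoter DHS. No gene with a Hist symbol had one, where 88 and 57 such genes had another promoter DHS. The counts for the Rpl or Rps and Hist symbols are too small to set these groups apart from the 2.50%.

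**Figure D3:**
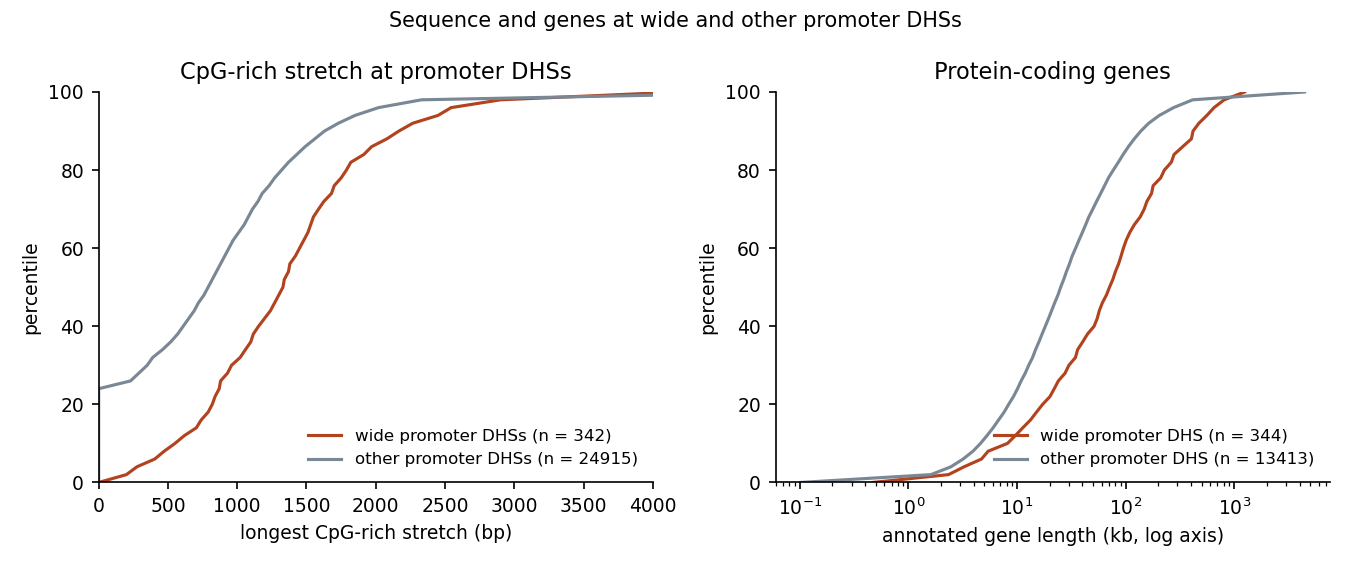
Left, percentiles of the longest CpG-rich stretch (bp) that overlaps the region, at wide promoter DHSs (n = 342) and other promoter DHSs (n = 24915). Right, percentiles of annotated gene length (kb, log axis) for protein-coding genes with a wide promoter DHS (n = 344) or another promoter DHS (n = 13413). The curve of wide DHSs lies to the right in both, with medians of 1330 against 790 bp and 71.0 against 25.2 kb.

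The widest regions are described next. The first by mean width lay in the exon of Pcdh10, at chr3:45379288-45381300, where the peaks were 1300 and 1141 bp wide with signals of 0.763 and 0.672 in replicates 1 and 2. Its CpG-rich stretch ran over 2710 bp. Nrp1, a receptor for semaphorins and VEGF, followed at chr8:128358361-128359812 with peaks of 1052 and 1248 bp over its promoter. Pde3b, a phosphodiesterase of cyclic nucleotides, had 1200 and 1020 bp, and Ryr2, a calcium release channel, had 906 and 1180 bp. Smarca2 had 820 and 1240 bp, and Irf2, an interferon regulatory factor, had 1240 and 800 bp. Several of the remaining widest regions were uneven. At Adcy8, a calcium-stimulated adenylyl cyclase, the peak was 1380 bp wide in replicate 1 and 620 bp in replicate 2, and at Klhl42, a kelch-like adaptor, 1440 and 520 bp. Spock3, a proteoglycan gene, had 526 and 1420 bp, Adgrl3, an adhesion receptor of the latrophilin family, 1380 and 560 bp, and Arhgap44, a GTPase-activating protein, 1340 and 600 bp. The region at Tiparp, a gene of the PARP family, and the neighbouring transcribed pseudogene 4931440P22Rik (1040 and 960 bp) was wide in both libraries. So were those at Kcmf1, a ubiquitin ligase (1060 and 940 bp), Soga3 (980 and 980 bp) and 4930402H24Rik (1040 and 860 bp). Of these 15 regions, 14 were promoters. The CpG ratio over 1 kb was at least 0.6 in all but Adgrl3 (0.531), Spock3 (0.444) and Arhgap44 (0.431).

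Distal wide DHSs were a smaller and mixed group. The 82 regions lay a median of 9014 bp from the nearest TSS, 35 within 5 kb and 38 over 10 kb away. Their median CpG ratio of 0.329 compares with 0.230 for other distal DHSs, and 20 of 82 (24.4%) reached 0.6, against 2.41%. Their median signals were 0.825 (replicate 1) and 0.933 (replicate 2), and those of other distal DHSs 0.655 and 0.742. The widest after Pcdh10 lay in the exon of Mex3b, an RNA-binding protein gene (560 and 1180 bp), and beside Gm27032 (1020 and 581 bp). They were followed by introns of Ccdc6 (843 and 660 bp) and Alcam, a cell adhesion gene (560 and 920 bp). The region in Maml3 had 840 and 600 bp. All 6 lay between 1111 and 2926 bp from a TSS, and the region beside Gm27032 had no CpG-rich stretch.

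Over 18 lists of cell type, tissue and pathway genes, 13 of 309 genes (4.21%) had a wide promoter DHS, and 226 of the 309 had a promoter DHS in both libraries. No wide one was found among the 28 genes of glutamatergic neurons and cortical layers, of which 27 had a promoter DHS in both libraries, or among the 18 housekeeping and 18 stress and RNA-processing genes, all with a promoter DHS. There was also none at interneuron, microglial, vascular and Polycomb-regulated genes, where fewer promoters were accessible in both libraries: 12 of 20, 6 of 14, 4 of 15 and 4 of 22. Chromatin regulators had 3 of 20: Chd7, a remodeller (740 and 620 bp in replicates 1 and 2), Tet3, an oxidase of methylcytosine (640 and 620 bp), and Arid1b, a subunit of SWI/SNF complexes (660 and 560 bp). Synaptic receptors and channels had 2 of 20, among them the NMDA receptor gene Grin2b (620 and 780 bp). Imprinted genes had 2 of 19, Grb10 (780 and 800 bp) and Ube3a (520 and 620 bp). Regulators with zinc finger or bHLH domains had 2 of 21, Tcf12 (520 and 820 bp) and Bhlhe41 (520 and 500 bp). Single genes came from 4 further lists: Elavl4, a neuronal RNA-binding protein (560 and 900 bp), Id4, an inhibitor of bHLH factors (700 and 1100 bp), Cnp, a myelin enzyme (614 and 720 bp), and Homer1, a scaffold of the postsynaptic density (680 and 700 bp). With lists of 10 to 28 genes and shares of 1.57% and 2.50% over all and over accessible protein-coding genes, counts of 0 to 3 are too small to set a list apart. Accessible but not wide were, for example, Bcl11a, Arc, Bdnf, Actb, Arid1a, Celf4 and Mbp.

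Some wide DHSs spanned several starts. The region at Htr1b, a serotonin receptor gene, and D430036J16Rik held 6 clusters of start sites, as did that at Ccdc106, and those at Nrp1, Ap3b2, a neuronal clathrin adaptor subunit, and Grin2b held 4. In all, 30 wide DHSs covered starts of at least 2 genes, and a longer region can cover more starts. In a window of the same length for both sets, the 2 kb around the midpoint, 18.4% of wide and 6.76% of other shared DHSs had starts of at least 2 genes. A start in this window makes a region a promoter. Within promoters the counts were 78 of 342 wide (22.8%) and 5254 of 24915 other DHSs. Wide DHSs hold more promoters, and within promoters divergent starts were about as frequent in both sets, as given above.

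Most wide DHSs had another peak close by. A further peak lay within 1 kb of the region's edges in both libraries at 275 of 342 wide promoter DHSs (80.4%), against 60.6% of other promoter DHSs. The neighbour was the higher in both libraries at 169 (49.4%), against 30.2% of other promoter DHSs, or 40.6% of those in the same signal range. For distal regions the shares with a neighbour were 51.2% and 17.6%. At Pcdh10, where the wide DHS had 0.763 and 0.672, the highest neighbour had 6.40 in replicate 1 and 4.77 in replicate 2. Smarca2 had 1.16 and 0.946 beside a neighbour of 4.74 and 4.88, and Homer1 had 1.05 and 0.622 beside 5.53 and 4.17. The reverse held at Gsk3b, with 9.68 and 10.3 in the wide DHS and 1.06 and 0.996 in the highest neighbour.

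**Figure D4:**
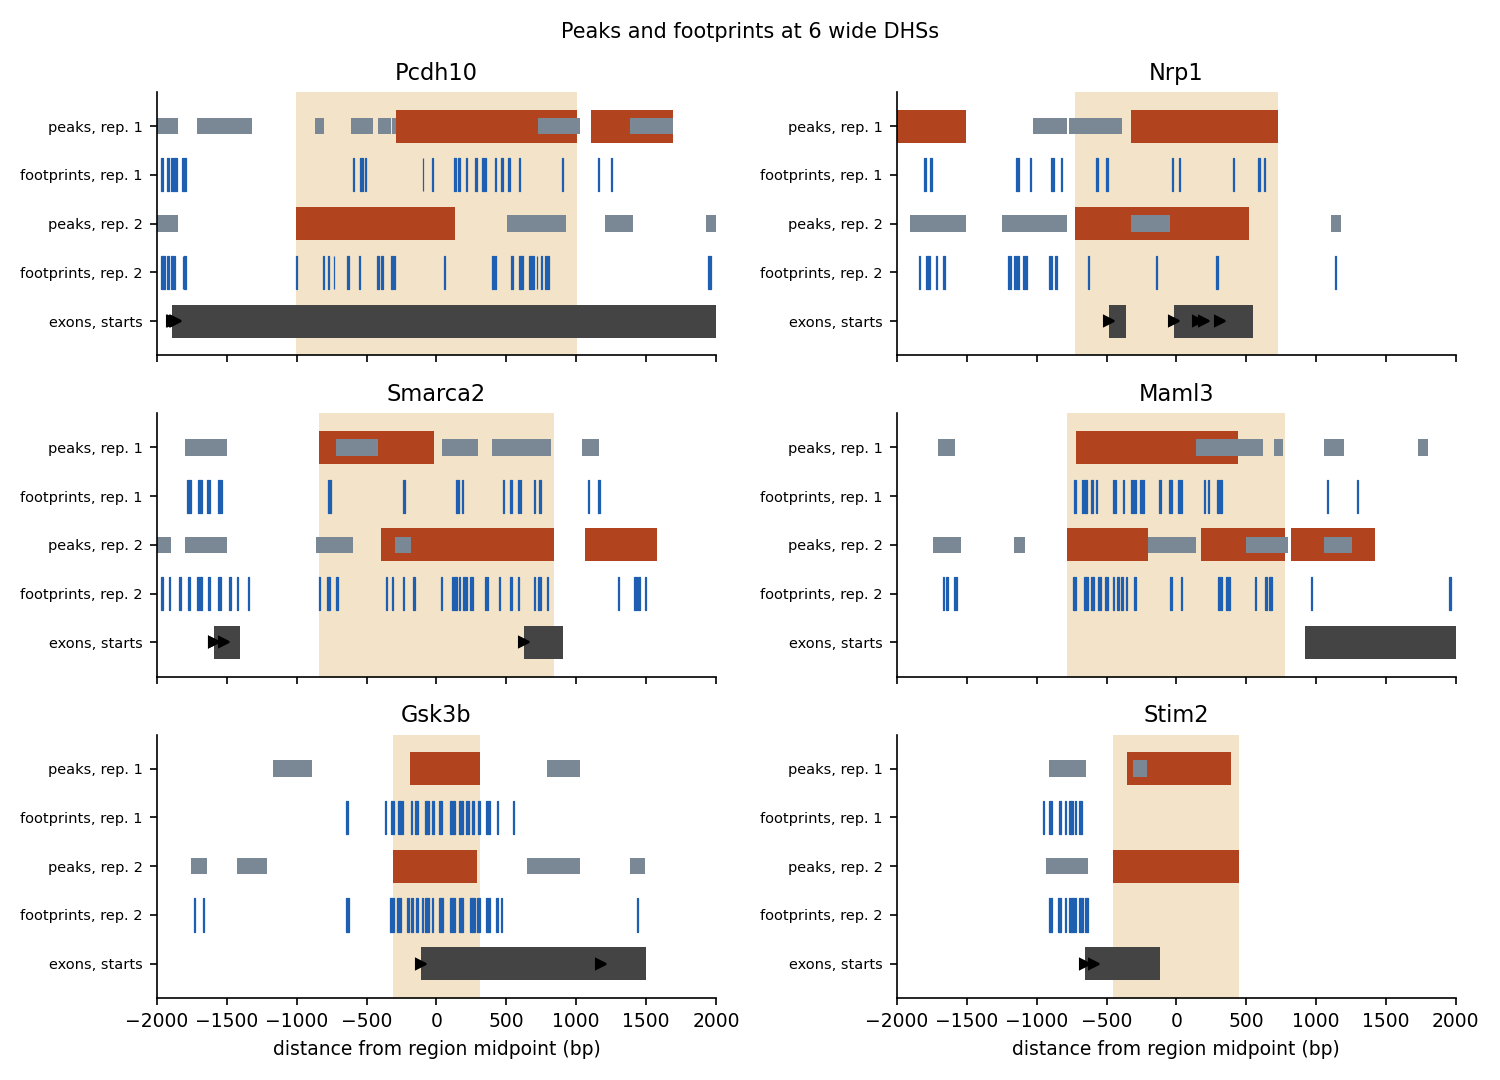
Peaks, footprints, exons and start sites at 6 wide DHSs, drawn on the plus strand by distance (bp) from the region midpoint; shading marks the region. Tall red bars are peaks of at least 500 bp, short grey bars narrower peaks, blue ticks footprints, dark bars exons and arrowheads start sites with their direction. Other peaks of the same library overlap wide ones at 5 of the 6 loci, Gsk3b being the exception, and the footprints drawn beside Stim2 lie in or next to the neighbouring peak at the TSS.

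The deposited false discovery rate (FDR) of local cleavage showed a plateau with shoulders. Next to the midpoint, 10 bp to its left, the mean -log10 FDR was 6.93 (replicate 1) and 10.6 (replicate 2) at wide DHSs, and 9.43 and 15.2 at 3888 other shared DHSs. The lower centre holds for this mean. The highest value inside each region had a median of 6.40 at wide and 4.53 at other shared DHSs in replicate 1, and 8.72 and 9.12 in replicate 2. At 250 bp to the right the mean was still 5.80 and 8.58 at wide DHSs, against 1.11 and 2.01. It dropped to 2.81 and 4.20 at 450 bp and was higher again, at 4.24 and 6.78, at 770 bp from the midpoint, where other shared DHSs had 0.785 and 1.33. Other shared DHSs had a weaker shoulder on the left, with means of 0.89 at -310 bp and 1.09 at -510 bp in replicate 1. In replicate 2 they had 1.56 at -330 bp and 1.80 at -530 bp. Promoters were 80.7% of wide and 32.0% of other shared DHSs, and no profile of promoters alone was made. The contiguous stretch of listed segments had a median length of 969 and 1214 bp at wide DHSs, against 264 and 363 bp. The FDR and the peak widths come from the same reads, and the regions were chosen by width. The plateau and the long stretch follow from that choice and are given as a description.

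**Figure D5:**
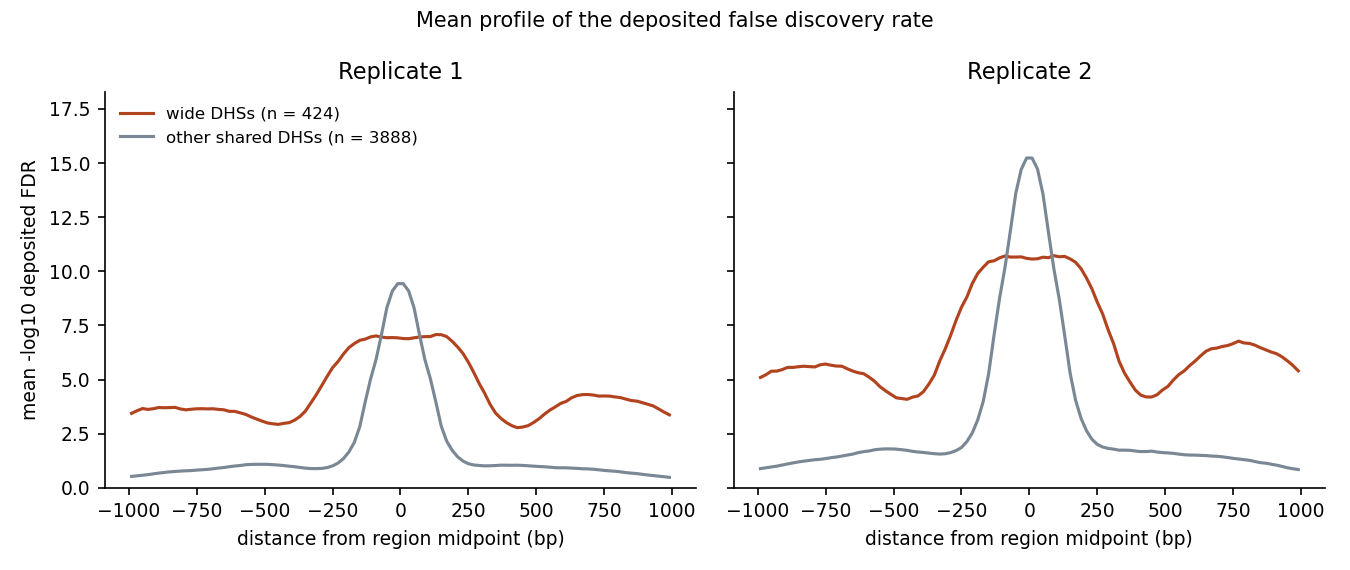
Mean -log10 of the deposited FDR (vertical axis) by distance from the region midpoint on the plus strand (horizontal axis, bp) in replicates 1 and 2, for wide DHSs (n = 424) and a sample of other shared DHSs (n = 3888). Wide DHSs form a plateau of about 500 bp whose mean is lower than the peak of other shared DHSs, with shoulders beyond 600 bp on both sides. Other shared DHSs have a weaker shoulder on the left.

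Footprints were more numerous in wide DHSs and sparser per base. The median was 5 in replicate 1 and 7 in replicate 2 per wide DHS, against 2 and 3 per other shared DHS. Per 100 bp it was 0.714 and 0.918, against 0.855 and 1.25. Footprints covered 7.37% and 10.4% of wide DHSs, against 11.7% and 17.4% of other shared DHSs, and 47.6% of the 2300 footprints of replicate 1 in wide DHSs overlapped a footprint of replicate 2, against 66.2% elsewhere. The range was broad: 55 wide DHSs had at least 10 footprints in both libraries. Maml3 had 23 and 20, Pcdh10 17 and 21, Fam217b 21 and 16, Trib1, a pseudokinase gene, 14 and 21, and Smarca2 10 and 24.

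No footprint was listed in either library in 34 wide DHSs (8.02%), against 3.33% of other shared DHSs. The libraries differed in direction when taken singly: 13% of wide and 16.0% of other shared DHSs had none in replicate 1, and 11.6% and 6.44% had none in replicate 2. Within promoters the shares were 14.6% and 13.7% in replicate 1 and 12.9% and 9.19% in replicate 2, and other promoter DHSs in the same signal range had 16.8% and 9.88%. Of these 34, 31 were promoters. Their median region width of 720 bp and median CpG ratio of 0.809 compare with 680 bp and 0.744 in the other 390, and their median signals of 0.751 and 0.577 in replicates 1 and 2 with 0.894 and 0.801. All 34 had a higher neighbouring peak within 1 kb in both libraries, where 155 of the other 390 (39.7%) did; among other shared DHSs the shares were 54.6% without and 13.5% with a footprint. At Stim2 the neighbour had 3.28 and 3.06 beside 0.748 and 0.572 in the wide DHS. At Hira, a histone chaperone gene, it had 2.79 and 2.03 beside 0.840 and 0.592, and at Rfx3, a transcription factor of ciliated cells, 4.17 and 4.77 beside 0.948 and 0.826. Phyhipl (2.87 and 2.87 beside 0.817 and 0.498) and 4931440J10Rik near Ints6 (7.05 and 8.46 beside 0.894 and 0.632) were of the same kind, as were Ube3a (4.62 and 4.74 beside 0.840 and 0.901) and Tcf12 (2.13 and 2.11 beside 0.740 and 0.448). The comparison with neighbours was chosen after these values were seen, and signal, width and footprints share their reads.

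Motif content was compared in windows of 1 kb around the midpoint, so that width played no part, with letters matched on both strands. GGGCGG of the SP/KLF family was present in 93.3% of wide and 72.6% of other promoter DHSs, with 3.82 and 2.47 matches per window. GCGTGGG of the EGR family was present in 28.1% and 21.0%. Other sequences gave lower shares at wide promoter DHSs: CCAAT was present in 55.0% and 66.6%, CCGGAAG of the ETS family in 15.2% and 20.6%, AAGATGG of YY1 in 13.2% and 18.4%, TGANTCA of AP-1 in 10.5% and 17.2%, and TATAAA in 12.9% and 25.1%. TGACGTCA was present in 3.22% and 3.57%. The CTCF consensus was found in 2 of 342 windows of wide promoter DHSs (0.585%) and in 3.18% of other promoter DHSs, and in 1 of 82 windows of wide distal DHSs (1.22%), against 9.75% of other distal DHSs. Matches were also set against footprints, over whole regions. Of the SP/KLF matches in wide promoter DHSs, 10.2% lay in a footprint in replicate 1 and 20.3% in replicate 2, as in the Csnk1g2 and Smarca2 windows printed above, against 29.0% and 42.0% in other promoter DHSs. Windows of wide DHSs are richer in G and C, and the part of base composition in these shares was not tested.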

How the data were processed

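DNase-seq libraries of 2 mice of 1 group were analysed. Per the labels, the genome build was mm10; the sources used here name no aligner, peak caller or footprint caller, and do not give the handling of CAST/EiJ alleles. The authors deposited, per library, a longer and a stricter peak list with a signal per peak whose scale is not stated, segments each carrying a q-value (false discovery rate) of cleavage, and footprints with the constant 0.01 in the p-value column. Depth is therefore unknown, and no interval is given.

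Wide DHSs were computed from the longer lists, with overlap of at least 1 bp. A region's signal is its highest peak signal in the library. Classes used the region midpoint, GENCODE M21 and GRCm38.p6; motifs, CpG sites and repeats were counted in that genome. Coordinates are 1-based. Footprints were assigned by midpoint. FDR profiles and repeats used every twentieth other shared DHS. Functions were tested on simulated data. Named regions are the 15 widest, the 6 widest distal, the 5 highest and 5 lowest in signal, the 3 largest ratios each way, the 5 with most footprints, up to 5 with none, the 5 with most start clusters, those nearest the threshold and list genes (up to 4 wide, and up to 2 not wide first in the alphabet). Some regions that this rule names are not reported here. The members and the gene lists were chosen with earlier results of these data known. Python 3.11.15, NumPy 2.4.6, pandas 2.3.3 and Matplotlib 3.10.9 were used. Alternatives covered width thresholds, the stricter list, overlap, single libraries, joined peaks, repeats, equal peak numbers, the promoter window and, chosen after seeing the data, the removal of overlapping peaks.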

Additional observations from a re-analysis of the deposited data

How the results depend on the processing

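The number of wide DHSs rests on the threshold and the list: it was 1258 at 400 bp, 127 at 600 bp and 14 at 800 bp, 155 with the stricter list, 789 with peaks under 50 bp apart joined, 276 with equal numbers of widest peaks, 116 without peaks that overlap another of their library, and 1268 to 2310 with 1 library alone. Genes with a wide promoter DHS followed, at 951, 114 and 14 for these thresholds, 138 with the stricter list, 640 with joined peaks, 97 without overlapping peaks, and 971 to 1161 with 1 library alone. The promoter share ran from 54.5% to 79.3% and the median CpG ratio from 0.452 to 0.705 with 1 library alone, the lower values being those of replicate 2; under every other alternative run the promoter share stayed at or above 65.8% and the CpG ratio at or above 0.702. For comparison, other shared DHSs were promoters in 25.9% within 500 bp of a TSS, where wide DHSs gave 65.8%. Median signal was 1.12 with the stricter list and 0.592 to 0.809 with 1 library alone. Median footprints per region were 8.75 at 800 bp, 8.50 with the stricter list, 4.75 without overlapping peaks and 4.00 to 5.00 with 1 library alone. The cause of these shifts was not tested. No paired analysis was possible because the series has 1 group. Unknown depth, a peak total in replicate 2 well above that of replicate 1 and only 2 animals limit what the widths can show.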

Other observations

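The stricter peak lists split many wide DHSs. Of the 452 wide member peaks of replicate 1, 207 (45.8%) held a peak of at least 500 bp in that library's stricter list, 225 held several stricter peaks and 23 held none. Of the 455 in replicate 2, 276 (60.7%) held a peak of at least 500 bp, 233 held several and 3 held none. The widest stricter peak had a median of 480 bp in replicate 1 and 520 bp in replicate 2.

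Wide DHSs lay on all autosomes and on the X chromosome, from 32 on chromosome 9 to 11 on the X chromosome. The widest joined region was not among the 15 widest by peak width: at Efna5, an ephrin ligand of axon guidance, 3 wide peaks of each library joined to 2140 bp, with signals of 0.632 in replicate 1 and 0.508 in replicate 2 and a CpG-rich stretch of 4190 bp. Efna5 was chosen for mention after its values were seen.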
